A study of Mus musculus with 4 samples.

Results

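Glutamate receptors carry most fast excitatory transmission in the hippocampus. AMPA, kainate and NMDA receptors are ion channels built from several subunits, delta receptors belong to the same channel family, and metabotropic receptors signal through G proteins. Auxiliary subunits, among them the stargazin family (Cacng genes), the cornichons and Shisa9, bind AMPA receptors and set their trafficking, gating and pharmacology. Described here are 33 genes: 4 AMPA, 5 kainate, 7 NMDA and 1 delta subunit, 7 metabotropic receptors and 9 AMPA receptor auxiliary subunits. They were taken by symbol from a deposited table of 23466 genes, and each gene was represented by the transcript record with the highest mean over the 4 libraries. In the table these 33 genes had 49 transcript records.

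The libraries were made from ribosome-depleted RNA of frozen hippocampus of C57BL/6N mice at postnatal day 30. Libraries 38 and 39, called mutant here, have the genotype Atp6ap2Camk2aCre/0. Their titles read ko, while their condition reads conditional het. Libraries 11 and 73 are labelled wt, and the labels do not say whether they carry Cre or a floxed allele. Atp6ap2 encodes an accessory subunit of the vacuolar proton pump, and a Camk2a promoter is used to drive Cre in forebrain excitatory neurons. The labels do not say in which cells Cre acted, and this was not checked. The labels do not say whether the samples came from separate animals, and a p-value here reflects only the scatter of these 4 samples, which may be technical.

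Values are scaled read equivalents, that is the deposited aligned bases of a transcript divided by the 42 bases that 1 read contributed. They are not divided by transcript length, so levels are compared between libraries and not between genes. Pairs of values set against each other are wild-types 11 and 73 first and mutants 38 and 39 second, each in that order, and fold changes are mutant over wild-type with the SE after the ± sign. Depth over genes ran from 10023033 read equivalents in wild-type 73 to 18339838 in wild-type 11. Excitatory neuron, CA1, CA3 and CA2, and dentate granule markers were all read in every library, with summed values of 39132 to 49730, 5156 to 7747, 3185 to 3702 and 4134 to 5470. The excitatory neuron sum includes Snap25, which is not particular to excitatory neurons, at 18064 in wild-type 11 to 24273 in mutant 39. Choroid plexus markers, 10 of 10 measured and none at 0, summed to 72316 in wild-type 11 and 120446 in mutant 38, against 7208 in wild-type 73 and 7553 in mutant 39, so that this tissue divided each group. Atp6ap2 had 2312 and 2637 in wild-types 11 and 73, against 2551 and 2522 in mutants 38 and 39, a log2 fold change of 0.04 ± 0.10 (SE, n = 2 per group, limma adjusted p = 0.991). A lower level of the targeted gene was not seen in the mutant libraries. The value covers the whole transcript in all cells and does not check the deleted part, so the groups rest on the labels.

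No glutamate receptor or auxiliary subunit gene passed the test, and the sizes of their fold changes were near those of other genes of similar signal. Of the 33 genes, 32 reached 1 read equivalent in 2 libraries and were tested. The exception was Grm6, the metabotropic receptor of retinal ON bipolar cells, which was listed at 0 in 3 libraries and at 0.844 in mutant 38. In limma, 0 of 32 had an adjusted p below 0.05, with the smallest at 0.823, against 0.00552% of the 18127 genes tested. At an unadjusted p below 0.05 there were 2 genes, beside 3.94% of all genes. Both of them, Grm4 and Cacng5, were higher in the mutants, beside 2.18% of all genes, and 0 were lower, beside 1.75%. The fold changes of 29 genes lay within 0.25 of 0 on the log2 scale, and the median was 0.03, beside 0.0067 over all genes tested. For 25 of the 32 the 95% interval lay within 0.5 on either side of 0, and for 28 within 1, the size of a 2-fold change. Of the 9766 genes with a mean of at least 200, 8704 had a fold change within 0.25 and 7183 an interval within 0.5. At the bounds of 0.25 and 0.5 the receptor genes were near that general share. The interval lay within 1 for 9551 of the 9766, a larger share than 28 of 32. Over all 18127 genes tested it did so for 12732, a smaller share. In bulk tissue, fewer cells of a type and less RNA per cell cannot be told apart.

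**Figure D1:**
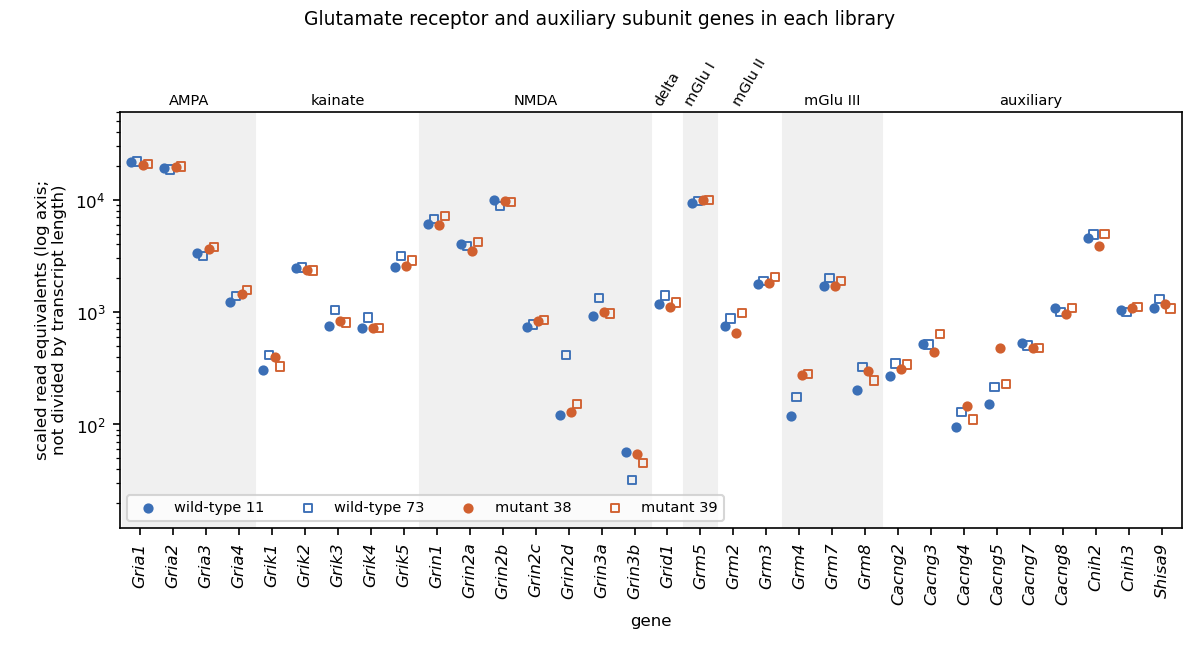
Scaled read equivalents (log axis, not divided by transcript length) of the 32 tested genes, grouped by receptor class, with 1 point for each library. The 4 points of most genes lie close together, while Grm4, Cacng5 and Grin2d are spread out.

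**Figure D2:**
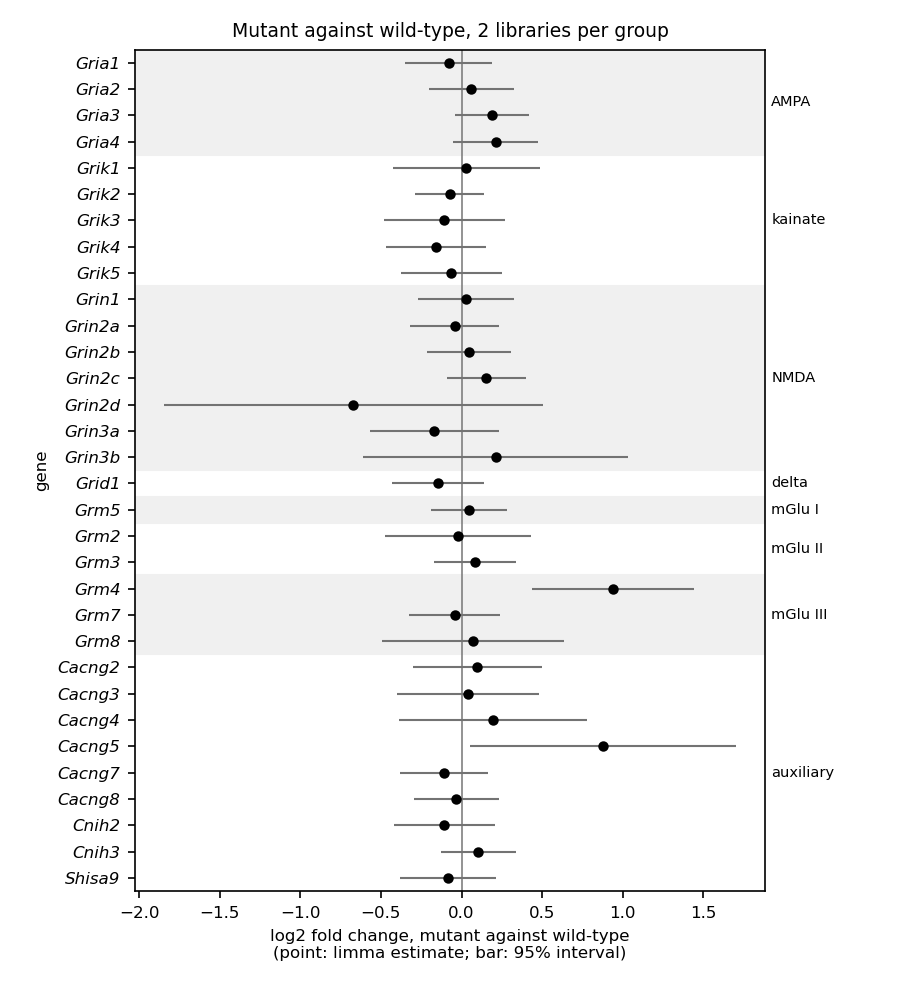
Log2 fold change of mutant against wild-type for the 32 tested genes, with limma's 95% interval as a bar (2 libraries per group). The intervals of Grm4 and Cacng5 lie above 0, and that of Grin2d runs from -1.85 to 0.51.

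AMPA receptors mediate the fast component of excitatory currents, and Gria2, whose edited subunit blocks calcium entry, is part of most of them in pyramidal cells. In each of the 4 subunit genes the mutants did not overlap the wild-types, 3 being higher and 1 lower, where 33.3% of all genes tested did not overlap (16.8% higher and 16.5% lower). None of the 4 passed the test. Gria1 had 21491 and 21835 in wild-types 11 and 73, against 20159 and 20869 in mutants 38 and 39, the lower direction. Mutant minus wild-type on the log2 scale came to -0.08 ± 0.11 (SE, n = 2 per group, limma adjusted p = 0.989). Gria2 had 19323 and 18531 in the wild-types and 19676 and 19795 in the mutants, with 0.06 ± 0.11. Gria3, a subunit gene on the X chromosome, had 3383 and 3158 against 3633 and 3816. It was higher in both mutants, with 0.19 ± 0.10 and an unadjusted limma p of 0.0931. Gria4, prominent in fast-spiking interneurons, had 1219 and 1386 against 1445 and 1569. Both mutants were again above both wild-types (0.21 ± 0.11, limma unadjusted p = 0.0977, adjusted p = 0.989). With 1 library left out at a time, the value of Gria4 ran from 0.12 to 0.30 and that of Gria3 from 0.14 to 0.24. Interneuron markers stood at 9146 and 10344 in the wild-types and 10511 and 10558 in the mutants when summed. Of these 5 markers none was at 0, and 2, Gad1 and Gad2, were higher in both mutants, beside 16.8% of all genes tested. Sst, Pvalb and Vip overlapped between the groups, with log2 fold changes of -0.27, 0.23 and -0.03. The part of interneurons in the value of Gria4 was not tested.

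The ratio of 2 subunits in 1 library does not depend on the scaling between libraries. The ratio of Gria1 to Gria2 signal was 1.11 and 1.18 in wild-types 11 and 73, against 1.025 and 1.05 in mutants 38 and 39. Both mutants were lower, by 0.14 on the log2 scale, where the pooled SD of replicates was 0.046. For Gria3 to Gria2 the ratio was 0.175 and 0.170 against 0.185 and 0.193, with both mutants higher. The size of each ratio depends on the lengths of the transcripts, and only its change between libraries can be read. A two-sided exact permutation test gave p = 0.333 for both, the smallest that 2 against 2 libraries allow. The ratios were chosen after values had been seen, and the groups were apart in 3 of the 10 computed, beside 33.3% of genes tested whose groups did not overlap.

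Across all classes the groups did not overlap in 12 of the 32 genes. Both mutants were higher in 8, beside 16.8% of all genes tested, and lower in 4, beside 16.5%. The 8 were Gria2, Gria3, Gria4, Grin2c, Grm4, Grm5, Cacng5 and Cnih3, and the 4 were Gria1, Grik2, Grik4 and Cacng7. For 13 genes the highest value was that of wild-type 73, the library with the lowest depth, and for 12 it was that of mutant 39. These are 40.6% and 37.5% of the genes described here, beside 29.96% and 22.4% of all genes tested and 34.6% and 26.1% of those with a mean of at least 200. Mutant 38 and wild-type 11, the libraries rich in choroid plexus RNA, were both lower than the other pair in 10 of the 32 genes and both higher in 2. These are 31.2% and 6.25%. Over all genes tested the shares were 19.99% and 20.6%, and over those with a mean of at least 200 they were 26.0% and 16.2%. Oligodendrocyte markers, 6 measured and none at 0, were all higher in both mutants, with sums of 77635 and 55588 in wild-types 11 and 73, against 95970 and 84745 in mutants 38 and 39. What part choroid plexus or oligodendrocyte RNA had in the values of the receptor genes was not tested.

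Kainate receptors modulate release and network excitability, with Grik4 and Grik5 as high-affinity partners of Grik1 to Grik3. All 5 kainate subunit genes had their highest value in wild-type 73. Grik2, the main subunit gene of mossy fibre kainate receptors, had 2448 and 2497 in wild-types 11 and 73, against 2359 and 2337 in mutants 38 and 39. Both mutants were lower, by a margin (log2 fold change -0.07 ± 0.09, SE, n = 2 per group) smaller than its error. Grik4, an enriched gene of CA3 pyramidal cells, had 724.8 and 895.9 against 721.5 and 724.2. Wild-type 11 and both mutants were nearly level, and wild-type 73 alone stood above them (-0.16 ± 0.13, limma adjusted p = 0.989). Grik3 had 759.4 and 1039 against 840.4 and 809.8, the groups overlapping. Its log2 fold change of -0.11 became 0.12 without wild-type 73. Grik5 (-0.06 ± 0.13) and Grik1 (0.03 ± 0.19) also overlapped.

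NMDA receptors, the coincidence detectors of synaptic plasticity, contain the obligatory subunit of Grin1 with Grin2 or Grin3 partners. Grin1 had 6030 and 6723 in wild-types 11 and 73, against 5900 and 7127 in mutants 38 and 39, so the groups overlapped (log2 fold change 0.03 ± 0.13, SE, n = 2 per group). The choroid plexus-poor libraries, wild-type 73 and mutant 39, were the high ones in each group. Hippocampal synapses exchange Grin2b for Grin2a subunits during postnatal maturation. Grin2a had 4033 and 3867 against 3497 and 4206 (-0.04 ± 0.12), and Grin2b had 9888 and 8737 against 9645 and 9558 (0.05 ± 0.11). The ratio of Grin2b to Grin2a signal was 2.45 and 2.26 in the wild-types and 2.76 and 2.27 in the mutants. It overlapped between the groups (difference 0.09 on the log2 scale, pooled SD 0.15, two-sided exact permutation p = 0.667).

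Among the other NMDA subunit genes, Grin2c, whose subunit gives slow, weakly magnesium-blocked receptors, had 739.8 and 775.7 in wild-types 11 and 73, against 838.4 and 846.5 in mutants 38 and 39. Both mutants were higher (0.15 ± 0.10, limma unadjusted p = 0.183, adjusted p = 0.989). Grin2d, expressed early in life and in interneurons, had 122.7 in wild-type 11 and 412.6 in wild-type 73 against 130.3 and 152.6 in the mutants. Wild-type 73 thus stood apart from the other 3 libraries, and the groups overlapped. Its log2 fold change was -0.67 ± 0.50, with a 95% interval from -1.85 to 0.51. It depended on 1 library: it was 0.20 without wild-type 73, and -1.54 without wild-type 11, where limma's adjusted p was 0.0444. Grin3a, which lowers calcium permeability and is high in juvenile brain, had 929.4 and 1326 against 1008 and 968.6, again with wild-type 73 highest (-0.17 ± 0.17). Grin3b had 32.1 to 56.8 in the 4 libraries (0.21 ± 0.35). The delta receptor gene Grid1, which binds cerebellins to organise synapses, had 1186 and 1402 against 1115 and 1218 and overlapped (-0.15 ± 0.12).

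Grm4, a presynaptic group III metabotropic receptor that lowers transmitter release, had the smallest p of the 32 tested genes. It had 119.8 and 175.4 in wild-types 11 and 73, against 274.6 and 283.1 in mutants 38 and 39. The mutants were close to each other and above both wild-types, while the wild-types were further apart. The group means were 147.6 ± 39.4 and 278.9 ± 6.01 (SD, n = 2 each), which put the log2 fold change at 0.94 ± 0.21 (SE). Its 95% interval ran from 0.44 to 1.44, and limma gave an unadjusted p of 0.0031 and an adjusted p of 0.823. It did not pass over all genes. The authors' deposited table lists it with p = 0.000916. Leaving out 1 library at a time gave 0.67 to 1.21, with unadjusted p-values from 0.000323 to 0.0112 and adjusted p-values from 0.24 to 1 (limma). With choroid plexus marker level added to the model, which leaves 1 residual degree of freedom, it was 0.96 with an adjusted p of 0.00401 (limma). In that model 115 of all genes passed, against 1 without the added term, so passing was not particular to Grm4.

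Cacng5 encodes a stargazin relative that modulates AMPA receptor gating. It had 151.3 and 214.6 in wild-types 11 and 73, against 483.2 and 228.3 in mutants 38 and 39. Mutant 38 stood above the other 3 libraries, and mutant 39 was only just above wild-type 73. This gave a log2 fold change of 0.88 ± 0.35 (SE), and its 95% interval ran from 0.05 to 1.71. In limma the unadjusted p was 0.0401 and the adjusted p 0.989. Leaving out mutant 38 lowered the value to 0.34 (unadjusted p = 0.249), and leaving out wild-type 11 lowered it to 0.63 (unadjusted p = 0.130). When mutant 39 was left out it was 1.42, and when wild-type 73 was, 1.13. Between the choroid plexus-poor libraries, mutant 39 and wild-type 73, the difference was 0.09 on the log2 scale, and between the rich ones, mutant 38 and wild-type 11, it was 1.67. For Grm4 the same pairs gave 0.69 and 1.19. In the authors' deposited table the 2 records of Cacng5 had p-values of 0.00535 and 0.00453. Grm4 and Cacng5 were the 2 of 33 genes with a p below 0.05 in the authors' deposited table, against 2.15% of the genes tested here.

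Markers of regions near the hippocampus were also read in every library. The 6 thalamus markers, none of them at 0, summed to 2467 (wild-type 11), 2237 (wild-type 73), 5561 (mutant 38) and 2806 (mutant 39), and all 6 were highest in mutant 38. Slc17a6, which loads glutamate into the vesicles of thalamic cells, had 380.4 and 408.3 against 953.7 and 783.1, both mutants above both wild-types. Prkcd, a kinase gene of thalamic relay neurons, had 499.4 and 404.8 against 1841 and 465.0, high in mutant 38 alone. The 7 striatum markers, none at 0, summed to 1261 and 1177 against 1604 and 1425, with 1 lower in both mutants. Among them Penk, which encodes the enkephalin precursor, had 137.0 and 129.2 against 235.5 and 222.3, both mutants again higher. Other markers of these lists did not share that order. Mutant 39 was below both wild-types for the thalamus markers Tcf7l2 (67.3) and Ntng1 (644.1) and for the striatum markers Drd2 (11.7), Rgs9 (284.8) and Ppp1r1b (385.8). In all, 2 of the 6 thalamus and 3 of the 7 striatum markers were higher in both mutants, beside 16.8% of all genes tested. The 1 striatum marker lower in both mutants stands beside 16.5%. The part of these regions in the values of Grm4 and Cacng5 was not tested.

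**Figure D3:**
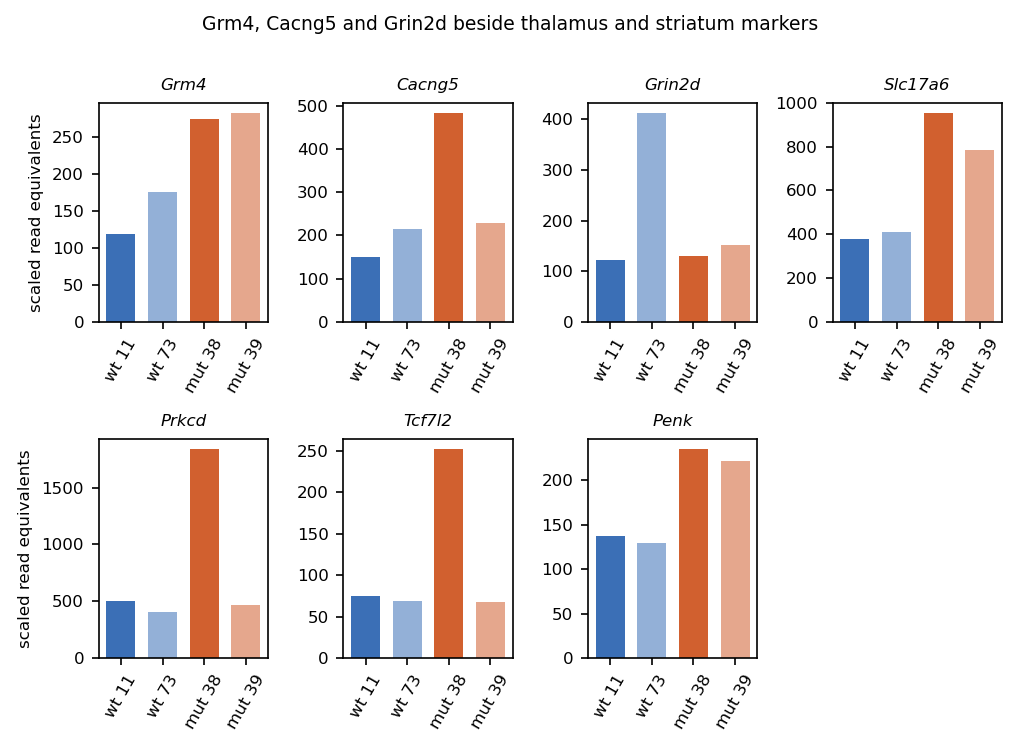
Scaled read equivalents of Grm4, Cacng5 and Grin2d, of the thalamus markers Slc17a6, Prkcd and Tcf7l2 and of the striatum marker Penk, with 1 bar for each library (wt, wild-type; mut, mutant). Grm4 is at 274.6 and 283.1 in the mutants, Cacng5 stands out in mutant 38 and Grin2d in wild-type 73.

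Promoter sequence is shown for Cacng5 because it is the gene at an unadjusted p below 0.05 that has windows in the RefSeq promoter table (GRCm38.p6). The table had windows for 22 of the 33 genes. Cacng5 has 2 annotated starts, at which its 250 upstream bases, both on the minus strand and printed from 5′ to 3′, lie at chr11:107915056-107915305 and chr11:107911363-107911612. Capitals mark matches to an AP-1 site (TGANTCA, N being any base) or a GC box (GGGCGG), on either strand.
Cacng5 outer start: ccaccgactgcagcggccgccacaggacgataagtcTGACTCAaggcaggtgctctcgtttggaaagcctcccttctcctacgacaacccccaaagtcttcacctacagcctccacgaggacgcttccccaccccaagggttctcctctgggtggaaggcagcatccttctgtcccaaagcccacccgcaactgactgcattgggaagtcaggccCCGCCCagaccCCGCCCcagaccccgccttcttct
Cacng5 inner start: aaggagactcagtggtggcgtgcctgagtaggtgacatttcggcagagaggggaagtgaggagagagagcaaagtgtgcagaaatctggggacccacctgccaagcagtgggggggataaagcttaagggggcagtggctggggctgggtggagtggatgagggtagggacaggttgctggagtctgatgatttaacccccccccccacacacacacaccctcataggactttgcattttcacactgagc
The outer window held 1 AP-1 site and 2 GC boxes, and the inner window held neither. Over the 26 windows of the genes described here, AP-1 sites were in 3 windows (11.5%), of Cacng5, Grin3b and Grm8, and GC boxes in 13 (50%). Over all 32851 windows of that length the shares were 6.75% and 32.7%. A cAMP response element (TGACGTCA) was in 0 of the 26 windows and in 1.55% of all. A match is a description of the letters and not a bound site.

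None of the other 5 tested metabotropic receptor genes had an unadjusted limma p below 0.05. Grm5, the group I receptor that couples to calcium release and binds Homer scaffolds, had 9367 and 9758 in wild-types 11 and 73, against 9891 and 9879 in mutants 38 and 39. Both mutants were higher by a small margin (log2 fold change 0.05 ± 0.10, SE, n = 2 per group, limma adjusted p = 0.989). Grm3, a group II receptor found on neurons and astrocytes, had 1761 and 1889 against 1817 and 2063 and overlapped (0.09 ± 0.11). Grm2, a group II receptor of granule cells and their mossy fibre terminals, had 755.2 and 877.1 against 657.6 and 974.8, with mutant 38 lowest and mutant 39 highest (-0.02 ± 0.19). Grm7, the presynaptic receptor of active zones, had 1701 and 2003 against 1697 and 1891 (-0.04 ± 0.12). Grm8 had 204.6 and 325.3 against 299.0 and 246.4 (0.07 ± 0.24). The groups overlapped in both.

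Of the 9 auxiliary subunit genes, 2 were higher in both mutants, Cacng5 and Cnih3, and 1 was lower, Cacng7. With 3 of 9 apart, beside 33.3% of all genes tested, the share was that of genes in general. Cacng8, the stargazin relative typical of hippocampal AMPA receptors, had 1083 and 1007 in wild-types 11 and 73, against 964.7 and 1082 in mutants 38 and 39. The groups overlapped (log2 fold change -0.03 ± 0.11, SE, n = 2 per group). Cacng7 had 526.0 and 504.4 against 475.7 and 478.4, a difference of -0.11 ± 0.11 with both mutants lower. Cnih3, a cornichon that slows AMPA receptor closing, had 1045 and 1004 against 1087 and 1117. Both mutants were higher (0.11 ± 0.10, limma adjusted p = 0.989). Cnih2, the other cornichon of hippocampal AMPA receptors, had 4558 and 4900 against 3900 and 4934, low in mutant 38 and otherwise level (-0.11 ± 0.13). Cacng2, the gene of stargazin itself, had 268.6 and 349.9 against 314.8 and 342.2 (0.10 ± 0.17). Cacng3 had 514.8 and 515.0 against 437.6 and 641.0, the mutants lying on either side of the wild-types (0.04 ± 0.19). Cacng4 (0.19 ± 0.25) and Shisa9, which speeds desensitisation (-0.08 ± 0.13), overlapped as well.

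Where a gene had several records, they can share reads and are not independent. Of the 33 genes, 11 had more than 1 record. The Gria4 record with the lowest signal had 654.6 and 797.9 in wild-types 11 and 73, against 729.6 and 811.2 in mutants 38 and 39. It overlapped between the groups, unlike the record described above. The group means of the 3 Gria1 records each differed by -0.08 on the log2 scale, and those of the 3 Gria2 records by 0.06 to 0.09.

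Proteins that gather or build glutamate receptors were described through 2 further lists. Of 25 measured genes for other receptors, auxiliary proteins and extracellular partners, 1 was higher and 4 were lower at an unadjusted limma p below 0.05, beside 2.18% and 1.75% of all genes tested. The list was chosen with earlier results of these data known, so these counts cannot show an excess. After adjustment 0 passed, beside 0.00552% of all genes, with the smallest adjusted p at 0.989. Both mutants were higher in 7 of the 25 and lower in 4, beside 16.8% and 16.5% of all genes. The median log2 fold change was -0.0019. C1ql3, a secreted C1q-like organiser of synapses, had 2604 and 2866 in wild-types 11 and 73, against 2177 and 2055 in mutants 38 and 39. Both mutants were lower (-0.37 ± 0.10, SE, n = 2 per group, limma unadjusted p = 0.0081, adjusted p = 0.989).

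The neuronal pentraxins cluster AMPA receptors from outside the cell, and their genes went both ways. Nptx1 had 7897 and 8082 in wild-types 11 and 73, against 6440 and 6740 in mutants 38 and 39, lower in both mutants (-0.28 ± 0.10, unadjusted p = 0.0247). Nptxr, the membrane-bound pentraxin, had 11422 and 13503 against 10102 and 9649, again lower (-0.33 ± 0.12, unadjusted p = 0.0293). Nptx2, the activity-regulated member, had 404.8 and 428.2 against 498.4 and 703.9, higher in both (0.51 ± 0.18, SE, n = 2 per group, unadjusted p = 0.024). All 3 had an adjusted p of 0.989 in limma. Without mutant 39 the unadjusted p of Nptx2 was 0.216 and its value 0.26. The ratio of Nptx2 to Nptx1 signal was 0.0513 and 0.0530 in the wild-types and 0.0774 and 0.104 in the mutants, apart by 0.79 on the log2 scale (two-sided exact permutation p = 0.333, the smallest possible). Prrt1, an AMPA receptor-associated membrane protein, was the remaining gene below 0.05, with 386.9 and 438.0 against 324.9 and 319.3 (-0.35 ± 0.13, unadjusted p = 0.0334). With 1 library left out at a time, the log2 fold change ran from -0.44 to -0.30 for C1ql3 and from -0.31 to -0.25 for Nptx1. It ran from -0.45 to -0.21 for Nptxr, from -0.44 to -0.26 for Prrt1 and from 0.26 to 0.76 for Nptx2. In those fits 1 group held a lone library, so the ranges do not show that the differences would repeat. Dentate granule markers, 5 measured and none at 0, summed to 4906 and 5470 in the wild-types and 4724 and 4134 in the mutants. Of these markers 2 were lower in both mutants, beside 16.5% of all genes tested. The part of the cell mixture in the lower values of C1ql3, Nptx1, Nptxr and Prrt1 was not tested.

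**Figure D4:**
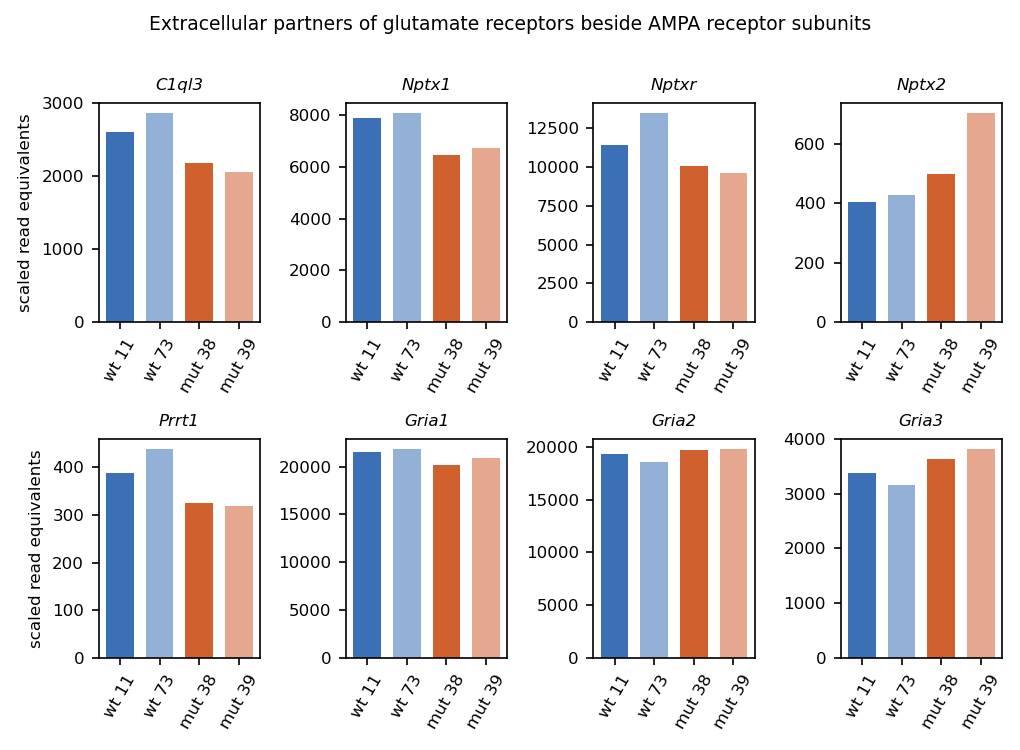
Scaled read equivalents of C1ql3, the pentraxin genes Nptx1, Nptxr and Nptx2, and Prrt1 beside the AMPA subunit genes Gria1, Gria2 and Gria3, with 1 bar for each library (wt, wild-type; mut, mutant). C1ql3, Nptx1, Nptxr and Prrt1 are lower in both mutants and Nptx2 is higher, while the bars of Gria1 and Gria2 are nearly level.

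Among 31 measured genes of the postsynaptic scaffold, 0 had an adjusted or an unadjusted p below 0.05 in limma, beside 0.00552% and 3.94% of all genes tested. Both mutants were lower in 5 of them (16.1%) and higher in 3 (9.68%), beside 16.5% and 16.8% of all genes, and the median was -0.04. Lrrtm1, an adhesion protein that binds neurexins, had 1535 and 1795 in wild-types 11 and 73, against 1312 and 1436 in mutants 38 and 39 (-0.27 ± 0.12, SE, n = 2 per group, unadjusted p = 0.0513). Shank3, a scaffold that links receptor complexes to actin, had 2586 and 2902 against 2389 and 2302 (-0.22 ± 0.10, unadjusted p = 0.0647). All 3 Shank genes were lower in both mutants, with -0.15 for Shank1 and -0.12 for Shank2. Cask, a membrane-associated kinase of synaptic junctions, had 1789 and 1848 against 2067 and 2085, with both mutants higher (0.19 ± 0.09, unadjusted p = 0.0774). Dlgap3, a protein that joins Shank to PSD-95, had 2987 and 3890 against 2592 and 3043 and overlapped (-0.28 ± 0.15). PSD-95 itself, from Dlg4, had 7736 and 8798 against 6769 and 7766, overlapping as well (-0.19 ± 0.12). Both libraries rich in choroid plexus RNA were lower than both poor ones in 21 of the 31 scaffold genes, beside 19.99% of all genes tested and 26.0% of the 9766 with a mean of at least 200. The part of that tissue in the scaffold values was not tested.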

How the data were processed

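The authors deposited 1 table of 31315 transcript records with a value for each of 4 libraries and a p-value column named after DESeq. The submitters' processing notes name GSNAP, DESeq2 and build mm9. Counter, annotation and versions: not given in the sources used here. The deposited values are signal: aligned bases over a transcript divided by 1 factor per library, since 100% were whole multiples of 1 step per library (within 0.05 of a step), with low values at 42, 84 and 126 steps. A read shared by transcripts can be in each of them. Whether the deposited p-values were adjusted is not stated.

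Values were divided by 42. The record with the highest mean stood for a gene, and genes with at least 1 read equivalent in 2 libraries were tested on log2(value + 1) with limma 3.58.1 in R 4.3.3 (variance trend, two-sided, Benjamini-Hochberg over 18127 genes, threshold 0.05). Fold changes on this scale understate those of low genes. Summed over genes, depth was 10023033 to 18339838 read equivalents. All pairs of libraries differed beyond sampling noise (chi-square per degree of freedom 9.06 to 20.5). The fit was also run on simulated data with known fold changes and noise that was independent between libraries. That simulation did not copy the choroid plexus difference within each group, so it does not vouch for the fit on these libraries. The values are not counts, so no count test was run. Python 3.11.15 and matplotlib 3.10.9 served for tables and plots.

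The genes and lists were chosen with earlier results of these data known. Library values are given for genes with an unadjusted p below 0.05, without overlap, or with the smallest p of their class, and for others chosen to describe a class. From each further list up to 4 genes with the smallest p are named, and Prrt1, Shank1, Shank2, Dlg4 and region markers were added after their values were seen. Shisa8 was not analysed here, and some genes of the lists are not reported by name. Lengths of current transcripts were not used, because Gria2 records matched to 4026 and 10371 bases had nearly the same signal. Promoters come from RefSeq, GRCm38.p6, and no coordinates of the files were used.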

Additional observations from a re-analysis of the deposited data

How the results depend on the processing

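The comparison was repeated under 10 alternatives, 4 of which left out 1 library each, so that 1 group had a lone sample assumed to vary like the other group. No paired analysis was possible because the replicate numbers of the labels (11 and 73, 38 and 39) are not shared between the groups. With choroid plexus marker level added, the limma model kept 1 residual degree of freedom. In it, 115 of all genes and 1 receptor gene, Grm4, passed an adjusted p of 0.05. Cacng5 (log2 fold change 0.85, limma unadjusted p = 0.00045, adjusted p = 0.0648) and Grin2d (-0.61, unadjusted p = 0.0193, adjusted p = 0.478) were below an unadjusted 0.05. So were 3 scaffold genes, and the share of all genes below it in this model is not given here. Grm2 changed sign there, to 0.0053. With a robust variance prior 12 of all genes passed the adjusted threshold, and 1 receptor gene was below an unadjusted 0.05. With a pseudocount of 5, 1 scaffold gene was below an unadjusted 0.05. The share of all genes below an unadjusted 0.05 is not given for these fits, so the counts are not read as results about the lists.

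Without 1 library at a time, 1 to 37 of all genes and 0 to 1 of the receptor genes passed, the 1 being Grin2d without wild-type 11. Those at an unadjusted p below 0.05 numbered 1 to 5, with 5 without wild-type 11 (Grik3, Grik4, Grin2d, Grin3a and Grm4). The median fold change ran from -0.066 to 0.081. Groups did not overlap in 19 to 24 genes. With a lone library in 1 group, any gene is less likely to overlap. The share over all genes is not given for these settings, so this count is not read as a result about the receptor genes. For the counts at an unadjusted p below 0.05 that share is not given either. Counts of partner genes ran from 0 to 5 and of scaffold genes from 0 to 4.

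Over all 10 alternatives 13 of the 32 genes kept their sign. The log2 fold changes that reversed without 1 library ran from -0.056 to 0.13 for Atp6ap2, -0.092 to 0.29 for Cacng2, -0.23 to 0.32 for Cacng3, -0.036 to 0.42 for Cacng4, -0.11 to 0.051 for Cacng8, -0.28 to 0.062 for Cnih2, and -0.23 to 0.057 for Shisa9. For kainate subunits they ran from -0.20 to 0.26 (Grik1), -0.33 to 0.12 (Grik3) and -0.22 to 0.092 (Grik5). For NMDA subunits they ran from -0.11 to 0.16 (Grin1), -0.18 to 0.091 (Grin2a), -0.042 to 0.14 (Grin2b), -1.54 to 0.20 (Grin2d), -0.42 to 0.089 (Grin3a) and -0.19 to 0.62 (Grin3b). For metabotropic receptors they ran from -0.31 to 0.26 (Grm2), -0.0058 to 0.18 (Grm3), -0.16 to 0.074 (Grm7) and -0.26 to 0.41 (Grm8). The thalamus markers Lef1, Ntng1 and Tcf7l2 ran from -0.034 to 1.02, -0.23 to 0.46 and -0.095 to 1.80. The cause of these changes was not tested. With 2 libraries per group the precision is low, and how much of it depth accounts for was not tested by gene.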
